A study of Mus musculus with 18 samples.

Results

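The 9 genes *Gpam*, *Agpat2*, *Agpat3*, *Lpin1*, *Lpin2*, *Lpin3*, *Dgat1*, *Dgat2* and *Mogat1* encode enzymes of the pathway that assembles triglyceride from glycerol 3-phosphate or monoacylglycerol and fatty acyl-CoA. They were taken by symbol from 23352 gene symbols of the liver RNA-seq tables and are described here in pathway order. Each was present once in the table of every liver with a usable estimate. The livers came from 9 wild-type and 9 homozygous *Gpr180*KO male mice, 20 weeks old, and every mouse in both groups had been fed a high-fat diet (HFD). The knockout is a whole-body deletion of exon 6 of *Gpr180* made by CRISPR/Cas9 on C57BL/6J, so the exon is missing from every cell type and not from hepatocytes alone, and both groups descend from matings of heterozygous founders. No normal-diet livers were analysed here.

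Hepatocytes build triglyceride in a fixed series of steps at the endoplasmic reticulum and the mitochondrial outer membrane. A glycerol 3-phosphate acyltransferase adds the first fatty acid, a 1-acylglycerol 3-phosphate acyltransferase adds the next to give phosphatidic acid, a lipin removes the phosphate to give diacylglycerol, and a diacylglycerol acyltransferase adds the last fatty acid. A side entry starts from monoacylglycerol and reaches diacylglycerol without phosphatidic acid. Fatty liver in rodents on a HFD is known for high hepatic *Mogat1*, and lipin 1 is also known as a transcriptional coactivator.

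In the *Gpr180*KO livers the level of *Lpin1*, a phosphatidic acid phosphatase, was 63.3% of the wild-type mean and passed the test across all genes as deposited. The call was lost under each of 3 scalings between libraries, within either series of samples alone and on leaving out any 1 of 13 of the 18 livers. The mean levels of *Gpam*, which encodes the mitochondrial acyltransferase of the first step, of *Lpin2*, *Lpin3* and of *Mogat1* were between 55.3% and 76.1% of wild-type and did not pass. *Agpat2*, *Agpat3*, *Dgat1* and *Dgat2*, the acyltransferases of the second and last steps, had mean levels between 96.5% and 114% of wild-type and did not pass either. The 9 genes had 5 log2 differences below that of the median gene and 4 above it.

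The RefSeq promoter windows of *Lpin1*, the gene that passed the test, of *Gpam* and *Agpat2*, whose shares of their steps differed, and of *Lpin3*, which holds an E-box, are given from 250 bases before to 50 bases after an annotated start in GRCm38.p6. Of the 9 genes, 7 had an entry, with 11 windows in all, and *Dgat1* and *Dgat2* had none. For each gene the window closest to the 5′ end of the locus in the deposited tables is given. Those starts coincide for *Agpat2* and *Lpin3*, lie 30 bases apart for *Gpam*, and lie 21196 bases apart for *Lpin1*, whose only window starts upstream of the tabled locus. Capitals mark the E-box CACGTG and the GC box GGGCGG on either strand. The windows are Gpam chr19:55099428-55099727 on the minus strand, Agpat2 chr2:26604368-26604667 on the minus strand, Lpin1 chr12:16610917-16611216 on the minus strand and Lpin3 chr2:160880420-160880719 on the plus strand, each printed 5′ to 3′ in the direction of transcription.
Gpam: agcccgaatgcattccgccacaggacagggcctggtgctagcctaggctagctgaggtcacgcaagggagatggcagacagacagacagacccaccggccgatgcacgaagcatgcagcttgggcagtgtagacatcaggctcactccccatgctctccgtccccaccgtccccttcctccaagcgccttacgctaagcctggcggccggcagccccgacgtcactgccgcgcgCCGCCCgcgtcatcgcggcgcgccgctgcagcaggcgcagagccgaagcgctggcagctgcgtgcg
Agpat2: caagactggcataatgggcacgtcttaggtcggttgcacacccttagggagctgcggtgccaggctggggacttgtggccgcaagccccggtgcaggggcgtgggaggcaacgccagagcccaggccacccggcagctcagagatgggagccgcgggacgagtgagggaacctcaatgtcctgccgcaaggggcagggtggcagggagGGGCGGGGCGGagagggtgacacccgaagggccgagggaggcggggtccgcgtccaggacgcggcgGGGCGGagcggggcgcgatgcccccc
Lpin1: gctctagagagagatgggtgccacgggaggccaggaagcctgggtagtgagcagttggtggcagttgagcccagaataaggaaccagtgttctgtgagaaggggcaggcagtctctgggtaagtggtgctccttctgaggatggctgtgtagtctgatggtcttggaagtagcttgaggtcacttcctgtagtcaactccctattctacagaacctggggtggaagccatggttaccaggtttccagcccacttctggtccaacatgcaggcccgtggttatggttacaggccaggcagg
Lpin3: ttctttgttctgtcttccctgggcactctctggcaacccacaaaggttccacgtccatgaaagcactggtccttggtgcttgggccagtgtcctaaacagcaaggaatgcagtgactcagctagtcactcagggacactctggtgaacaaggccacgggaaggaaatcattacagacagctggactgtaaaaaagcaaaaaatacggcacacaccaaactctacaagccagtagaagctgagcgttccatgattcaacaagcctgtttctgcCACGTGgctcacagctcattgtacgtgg

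An E-box, which reads the same on both strands, lay in 2 of the 11 windows, the printed one of *Lpin3* and one of *Lpin2*, against 7.15% of all 32851 promoter windows in the table. A GC box lay in 5 of the 11 windows against 35.7% of all windows, and the *Agpat2* window held 3 boxes, 2 of them overlapping, and the printed *Gpam* window 1. The sterol response element TCACNCCAC, searched on both strands, was in none of the 11 windows and in 1.24% of all windows. The printed *Agpat2* window was 72.0% G and C, that of *Gpam* 68.0%, that of *Lpin1* 55.3% and that of *Lpin3* 50%. In the GENCODE annotation of GRCm38 all 9 are protein-coding genes: *Gpam* on chromosome 19 from 55067268 to 55127238, *Agpat2* on 2 from 26593057 to 26604417, *Agpat3* on 10 from 78269178 to 78352489, *Lpin1* on 12 from 16535669 to 16610966, *Lpin2* on 17 from 71182560 to 71249817, *Lpin3* on 2 from 160880670 to 160906002, *Dgat1* on 15 from 76502015 to 76511953, *Dgat2* on 7 from 99153658 to 99182719 and *Mogat1* on 1 from 78510991 to 78538173.

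The tables give FPKM, the fragments counted per length of transcript and per depth of the library, so levels can be set side by side between genes. Depth relative to the deepest library, read from the step size of the low values, was 60.8% to 100% in wild-type and 44.3% to 93.5% in *Gpr180*KO. *Gpr180* itself, which checks the labels, was 4.46 to 9.24 FPKM in wild-type and 0.876 to 1.99 in *Gpr180*KO with no overlap, a log2 difference of -2.0 ± 0.18 (SE, n = 9 and 9, adjusted p = 4.7e-06 by limma). The sample titles come in 2 styles, 4 and 4 livers in one and 5 and 5 in the other, here called title series 1 and title series 2, and nothing in the labels says whether they mark a batch. The library of the *Gpr180*KO mouse KO51, of series 2, stood apart, with the highest FPKM sum of all 18. Results that rest on it are therefore also given without it, except those within series 2 alone. Nothing says how many litters the mice came from, and a p-value measures the spread between these livers only. In whole liver, fewer cells of a type and less RNA per cell cannot be told apart.

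Genotypes were compared with limma on log2(FPKM + 0.1) for all 10835 genes with a mean of at least 1 FPKM, which all 9 enzymes reached, and p-values were adjusted over all of them. Of all genes tested 4.28% were called lower in *Gpr180*KO and 0.452% higher at an adjusted p of 0.05, against 1 lower and 0 higher of the 9 enzymes. An unadjusted p under 0.05 was reached by 5 of the 9 and by 22.2% of all genes, and 76.9% of all genes had a negative difference. The median log2 difference was -0.43 over the 9 enzymes and -0.13 over all genes. After median-of-ratios scaling, which sets each library to the same typical gene, the median over all genes moved to 0.02 and that over the enzymes to -0.28. On this scale 1.36% of all genes were called lower and 1.35% higher. None of the 9 enzymes was called by limma in either direction. There 5 of the 9 and 1946 of all 10835 genes had an unadjusted p under 0.05. In no enzyme did all *Gpr180*KO livers lie below or above all wild-type livers, a separation reached downwards by 0.175% and upwards by 0.0554% of all genes.

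**Figure D1:**
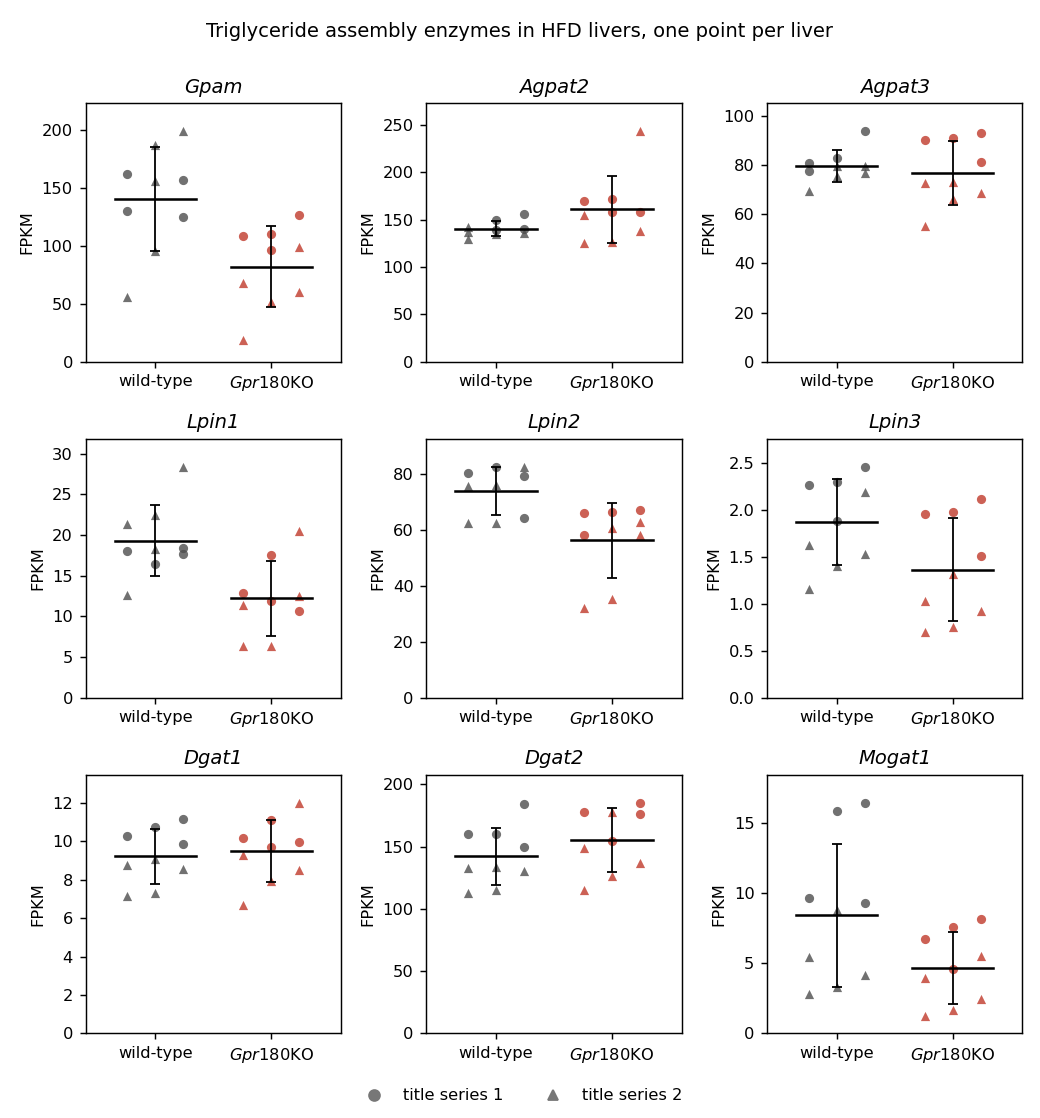
FPKM of the 9 enzymes in each of the 18 HFD livers, on linear axes that start at 0. Each point is a liver, circles are title series 1 and triangles title series 2, the horizontal line is the group mean and the bar is ± 1 SD (n = 9 per genotype). *Gpam*, *Lpin2* and *Mogat1* had all 9 *Gpr180*KO livers under the wild-type mean, and the groups overlap in every panel.

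**Figure D2:**
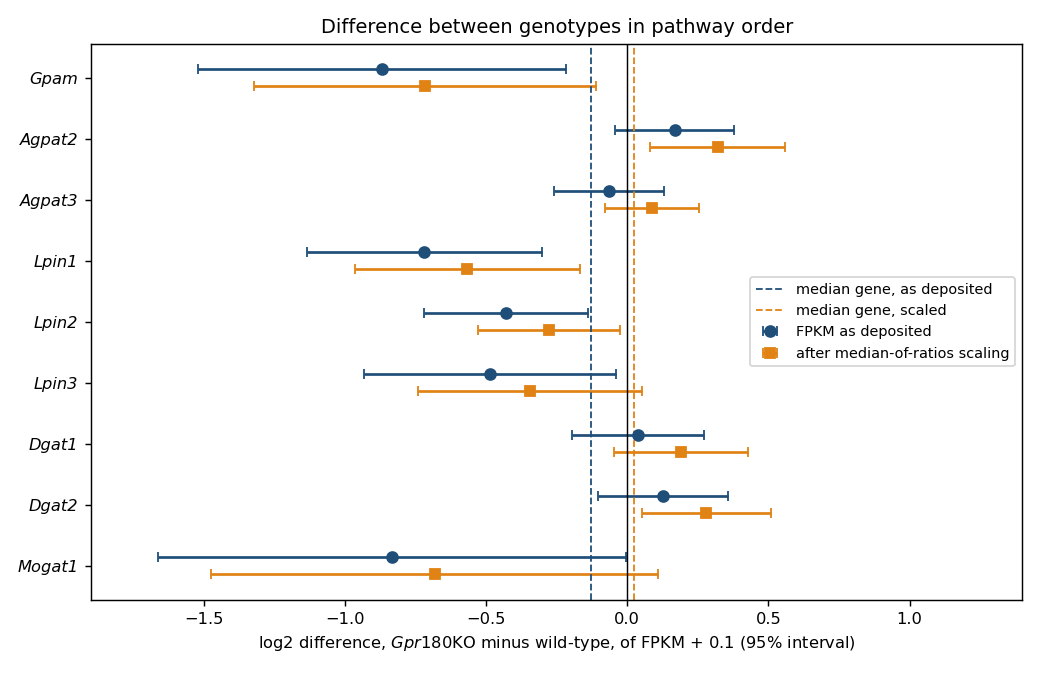
Log2 difference of each enzyme, *Gpr180*KO minus wild-type, on the scale of log2(FPKM + 0.1), with limma's 95% interval (n = 9 and 9). Circles use FPKM as deposited and squares FPKM after median-of-ratios scaling, and the dashed lines at -0.13 and 0.02 are the medians of all 10835 genes on each scale. The intervals of *Gpam*, *Lpin1* and *Lpin2* lie below 0 on both scales, and those of *Agpat2* and *Dgat2* lie above 0 after scaling.

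The first step is catalysed by glycerol 3-phosphate acyltransferases, of which *Gpam* encodes the main mitochondrial form in liver. *Gpam* ranged from 55.7 to 199 FPKM in wild-type with a median of 156.7, and from 18.5 to 127 in *Gpr180*KO with a median of 96.7. All 9 *Gpr180*KO livers lay below the wild-type mean, 2 of them below the lowest wild-type liver. The wild-type livers W134 (55.7 FPKM), W131 (95.4) and W320 (125) lay within the *Gpr180*KO range. The means were 141 ± 45.0 (SD, n = 9) and 82.2 ± 34.8 FPKM (SD, n = 9), with a log2 difference of -0.87 ± 0.31 (SE) that did not pass (adjusted p = 0.108 by limma). The difference was at the 2.02 percentile of all genes tested, counted from the most negative. Without KO51, the lowest liver, it was -0.62 (adjusted p = 0.113), and with median-of-ratios scaling -0.72 (adjusted p = 0.186). Of all 9 genes *Gpam* had the widest relative spread but for *Mogat1*, with a coefficient of variation of 31.9% in wild-type and 42.4% in *Gpr180*KO. Without KO51 that in *Gpr180*KO was 30.0%, under *Lpin3* (40.8%) and *Lpin1* (33.4%) as well.

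*Agpat2* and *Agpat3* encode 1-acylglycerol 3-phosphate acyltransferases, which make phosphatidic acid, and loss of *AGPAT2* is a known cause of congenital lipodystrophy in humans. *Agpat2* ranged from 130 to 156.2 FPKM in wild-type with a median of 139, and from 125 to 243 in *Gpr180*KO with a median of 157.5. In *Gpr180*KO 5 livers lay above every wild-type liver and 2 below every one, and the coefficient of variation was 22.0% (12.2% without KO51) against 5.69% in wild-type. The means were 140 ± 8.0 (SD, n = 9) and 161 ± 35.4 FPKM (SD, n = 9). The log2 difference of 0.17 ± 0.10 (SE) did not pass (adjusted p = 0.333 by limma), nor did that of 0.32 after median-of-ratios scaling (adjusted p = 0.132). The highest value, 243 FPKM, was that of KO51, and without this library the difference was 0.09 on the deposited scale. On the median-of-ratios scale the difference was 0.21 without KO51 and passed (adjusted p = 0.0368), a setting in which 269 of all genes were called higher.

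*Agpat3* lay between 69.3 and 93.7 FPKM in wild-type, median 79.5, and between 55.3 and 92.9 in *Gpr180*KO, median 72.9. The groups overlapped, with 4 *Gpr180*KO livers above the wild-type mean and 5 below, 3 of which, KO51, KO53 and KO54, lay below every wild-type liver. The means were 79.5 ± 6.56 and 76.7 ± 12.8 FPKM (SD, n = 9 and 9). The log2 difference was -0.07 ± 0.09 (SE, adjusted p = 0.689 by limma), with a 95% interval from -0.26 to 0.13, and its sign turned after median-of-ratios scaling (0.09).

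The lipins dephosphorylate phosphatidic acid to diacylglycerol. *Lpin1*, the best known of them, ranged from 12.6 to 28.4 FPKM in wild-type with a median of 18.3, and from 6.30 to 20.5 in *Gpr180*KO with a median of 11.9. Of the *Gpr180*KO livers 6 lay below every wild-type liver, and 1, KO54 at 20.5 FPKM, lay above the wild-type mean. The means were 19.3 ± 4.40 (SD, n = 9) and 12.2 ± 4.62 FPKM (SD, n = 9). The log2 difference of -0.72 ± 0.20 (SE) passed (adjusted p = 0.0442 by limma), at the 3.25 percentile of all genes. It did not pass after median-of-ratios scaling (-0.57, adjusted p = 0.111). On the deposited scale the call also depended on single livers. It was kept when W134, W157, KO319, KO321 or KO54 was left out and lost when any 1 of the other 13 was, with adjusted p-values from 0.0296 to 0.0935. Without KO51 the difference was -0.61 (adjusted p = 0.0529).

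*Lpin2*, the most abundant lipin of these livers, ranged from 62.6 to 82.6 FPKM in wild-type with a median of 76.1, and from 31.96 to 67.3 in *Gpr180*KO with a median of 60.8. All 9 *Gpr180*KO livers lay below the wild-type mean and 5 below every wild-type liver, with KO51 and KO53 far below the other 7. The means were 74.0 ± 8.5 and 56.4 ± 13.4 FPKM (SD, n = 9 and 9), and the log2 difference of -0.43 ± 0.14 (SE) did not pass (adjusted p = 0.0780 by limma). It was -0.28 with median-of-ratios scaling (adjusted p = 0.223) and -0.33 without KO51 (0.0791), and it passed with the title series as a block (0.0389). *Lpin3* was near the lower end of the genes tested, at 1.15 to 2.46 FPKM in wild-type (median 1.88) and 0.698 to 2.11 in *Gpr180*KO (median 1.31). Its 4 lowest livers were all *Gpr180*KO, and 3 *Gpr180*KO livers lay above the wild-type mean. The means were 1.87 ± 0.460 and 1.36 ± 0.55 FPKM (SD, n = 9 and 9), with a log2 difference of -0.49 ± 0.21 (SE) that did not pass (adjusted p = 0.188 by limma) but did with the series as a block (0.0345). The block fit called 9.52% of all genes lower. The *Lpin3* difference did not pass after median-of-ratios scaling (-0.34, adjusted p = 0.359) or without KO51 (-0.45, 0.215). At the level of *Lpin3* the interval given with each value in the tables spanned a median of ± 21.6% of the FPKM, against ± 6.22% for *Lpin1* and ± 3.13% for *Lpin2*.

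The last step is shared by 2 unrelated diacylglycerol acyltransferases, of which DGAT2 is known to use newly made fatty acids. *Dgat2* ranged from 113 to 184 FPKM in wild-type with a median of 134.02, and from 115 to 185 in *Gpr180*KO with a median of 154. Only 1 *Gpr180*KO liver lay above the highest wild-type liver and none below the lowest. The means were 142 ± 23.1 and 155 ± 25.4 FPKM (SD, n = 9 and 9), and the log2 difference of 0.13 ± 0.11 (SE) did not pass (adjusted p = 0.505 by limma), nor did that of 0.28 after median-of-ratios scaling (adjusted p = 0.168). *Dgat1* ranged from 7.15 to 11.2 FPKM in wild-type, median 9.09, and from 6.70 to 12.0 in *Gpr180*KO, median 9.72, and the lowest and the highest of all 18 livers were both *Gpr180*KO. Its means were 9.21 ± 1.43 and 9.49 ± 1.62 FPKM (SD, n = 9 and 9), and its log2 difference was 0.04 ± 0.11 (SE, adjusted p = 0.858 by limma), with a 95% interval from -0.20 to 0.27. Without KO51, the highest liver, it was -0.01.

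*Mogat1* encodes a monoacylglycerol acyltransferase, the side entry to diacylglycerol. It ranged from 2.82 to 16.5 FPKM in wild-type with a median of 8.78, and from 1.26 to 8.15 in *Gpr180*KO with a median of 4.60. All 9 *Gpr180*KO livers lay below the wild-type mean and 3 below every wild-type liver, and the 4 wild-type livers W131, W134, W156 and W157 lay among the *Gpr180*KO values. The means were 8.43 ± 5.09 and 4.66 ± 2.55 FPKM (SD, n = 9 and 9), and the log2 difference of -0.83 ± 0.40 (SE) did not pass (adjusted p = 0.224 by limma) but did with the series as a block (0.0446). It did not pass after median-of-ratios scaling (-0.68, adjusted p = 0.361), with both the block and this scaling (0.129), or without KO51 (-0.89, 0.203). The coefficient of variation was 60.4% in wild-type and 54.6% in *Gpr180*KO, the widest of the 9 genes.

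Ordered by mean FPKM in wild-type livers, the enzymes ran *Dgat2*, *Gpam*, *Agpat2*, *Agpat3*, *Lpin2*, *Lpin1*, *Dgat1*, *Mogat1* and *Lpin3*. Neighbours were compared within livers by a two-sided exact sign-flip test of the log2 levels, over 8 pairs and 9 livers. *Agpat2* lay above *Agpat3*, *Lpin2* above *Lpin1*, *Lpin1* above *Dgat1* and *Mogat1* above *Lpin3* in 9 of 9 livers, each at the smallest exact p that the test allows (0.0039, adjusted 0.0078). The other 4 pairs did not differ beyond their spread, among them *Dgat2* with *Gpam* and *Gpam* with *Agpat2* (exact p = 0.672 and 0.715), so no single gene stood at the top. In *Gpr180*KO the order ran *Agpat2*, *Dgat2*, *Gpam*, *Agpat3*, *Lpin2*, *Lpin1*, *Dgat1*, *Mogat1* and *Lpin3*. *Dgat2* there exceeded *Gpam* in 9 of 9 livers, by a mean log2 level of 1.08 (exact p = 0.0039, adjusted 0.0062), while *Gpam* and *Agpat3* did not differ beyond their spread (exact p = 0.961). *Agpat3* over *Lpin2*, *Lpin2* over *Lpin1*, *Dgat1* over *Mogat1* and *Mogat1* over *Lpin3* also held in 9 of 9 livers, with the same exact p. Whether the genotypes differ in any of these orders was not tested.

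To compare enzymes of the same step without any scaling between libraries, each gene was expressed as its share of the summed FPKM of its step. For the second step this sum held *Agpat2* and *Agpat3* alone, without *Agpat1*, *Agpat4*, *Agpat5* and *Lclat1*. Genotypes were compared by two-sided exact permutation tests over the 18 livers, adjusted over 6 shares. *Gpam* made up 73.3% ± 10.1 (SD, n = 9) of the summed FPKM of the 4 glycerol 3-phosphate acyltransferase genes in wild-type and 55.6% ± 15.0 (SD, n = 9) in *Gpr180*KO. This share was lower by 17.7 points (exact permutation p = 0.0108, adjusted 0.0323) and lay below the wild-type mean in 9 of 9 *Gpr180*KO livers. The next gene of that step, *Agpat6*, now named *Gpat4* and known as a form of the endoplasmic reticulum, was at 41.4 ± 4.98 FPKM in wild-type and 54.2 ± 12.6 in *Gpr180*KO (log2 difference 0.36 ± 0.12 SE, adjusted p = 0.0742 by limma, and 0.52 with adjusted p = 0.0346 after median-of-ratios scaling). The lowest *Gpr180*KO share, 28.6%, was that of KO51, and KO53, KO54 and KO56 followed at 44.4% to 45.4%.

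*Agpat2* made up 63.9% ± 1.85 (SD, n = 9) of the sum of *Agpat2* and *Agpat3* in wild-type and 67.4% ± 4.34 (SD, n = 9) in *Gpr180*KO, higher by 3.49 points (exact permutation p = 0.0108, adjusted 0.0323) and above the wild-type mean in 8 of 9 livers. Both calls were lost when any 1 of 11 livers was left out, KO51 among them. Without KO51 the *Gpam* share was lower by 14.3 points and the *Agpat2* share higher by 2.16 points, each with an adjusted p of 0.0665. They were kept without W134, KO319, KO320, KO321, KO322, KO52 or KO54 and lost without any other single liver.

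The shares of the lipins did not pass. *Lpin1* made up 20.3% ± 4.38 of the lipin sum in wild-type and 17.2% ± 3.64 in *Gpr180*KO (exact permutation p = 0.123, n = 9 and 9), and *Lpin2* 77.8% ± 4.33 and 80.9% ± 3.38 (exact permutation p = 0.107, n = 9 and 9). *Lpin3* was 1.96% of the sum in each genotype. *Dgat2* made up 93.9% ± 0.623 of the sum of *Dgat1* and *Dgat2* in wild-type and 94.2% ± 0.858 in *Gpr180*KO (exact permutation p = 0.396, n = 9 and 9).

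**Figure D3:**
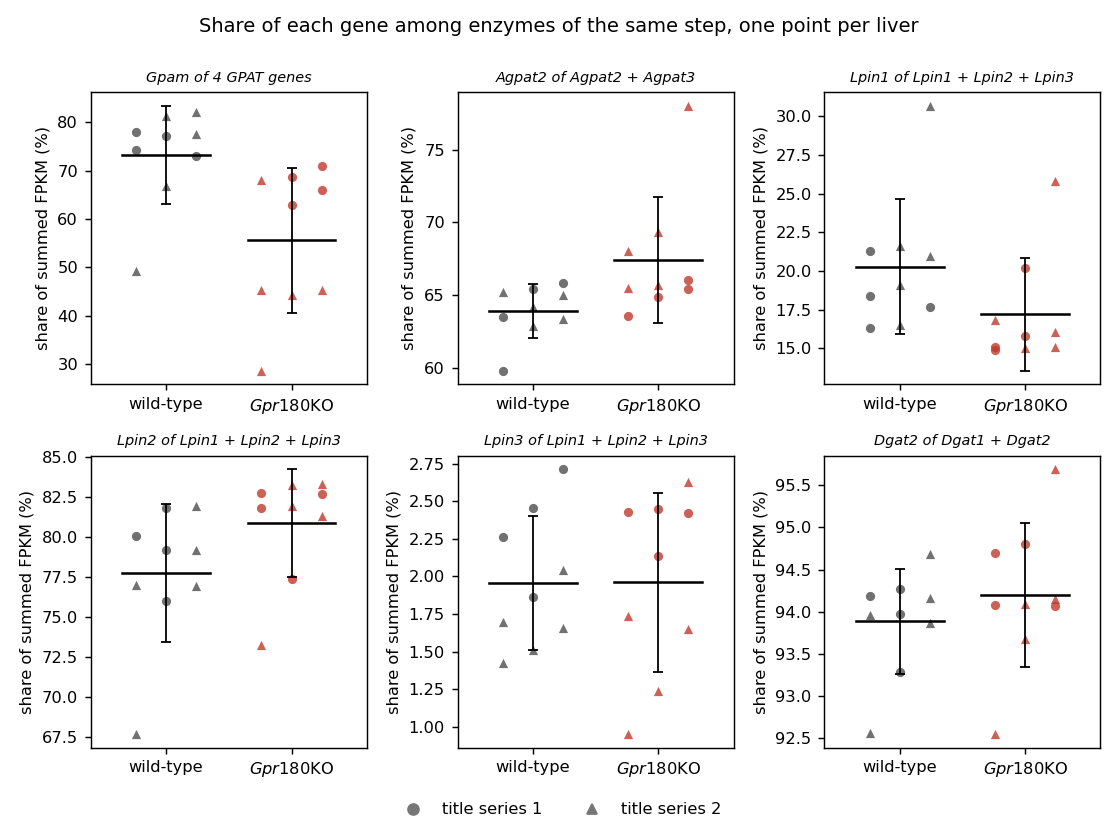
Share of the summed FPKM of its step held by each gene, in percent, per liver. For the second step the sum is that of *Agpat2* and *Agpat3* alone. Circles are title series 1 and triangles title series 2, lines are group means, bars are ± 1 SD (n = 9 per genotype), and the axes do not start at 0. The *Gpam* share lay at 49.2% to 82.2% in wild-type and 28.6% to 71.1% in *Gpr180*KO, and the *Agpat2* share at 59.8% to 65.8% and 63.6% to 78.0%.

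Some of the 9 enzymes differed in level between the title series within each genotype. *Dgat1*, *Dgat2* and *Mogat1* were higher in all 4 wild-type livers of series 1 than in all 5 of series 2, at 9.87 to 11.2 against 7.15 to 9.09 FPKM for *Dgat1*, 150 to 184 against 113 to 134.02 for *Dgat2* and 9.32 to 16.5 against 2.82 to 8.78 for *Mogat1*. Such a separation between wild-type livers, in one direction or the other, was seen in 21.2% of all genes. Among *Gpr180*KO livers the series were separated for *Agpat3*, at 81.1 to 92.9 FPKM in series 1 against 55.3 to 72.9 in series 2. They were also separated for *Lpin3*, at 1.51 to 2.11 against 0.698 to 1.31. The share of all genes so separated among *Gpr180*KO livers is not given, so nothing particular to these enzymes can be read from it. The genotypes were therefore also compared within each series. The log2 difference (of means of log2 levels) was -0.37 in series 1 and -1.27 in series 2 for *Gpam*, -0.44 and -0.94 for *Lpin1*, -0.24 and -0.58 for *Lpin2*, -0.23 and -0.69 for *Lpin3* and -0.89 and -0.78 for *Mogat1*. It was 0.17 in both series for *Agpat2* and 0.09 and 0.16 for *Dgat2*. *Agpat3* (0.09 and -0.19) and *Dgat1* (-0.04 and 0.10) had opposite signs in the 2 series. All series 2 differences here include KO51 and are not given without it. None of the 9 enzymes passed within either series alone by limma on the deposited scale, with 5 in series 1 and 4 in series 2 at an unadjusted p under 0.05. Of all genes 4.50% were called lower and 0.831% higher in series 1, where 2638 had an unadjusted p under 0.05. In series 2, 0.00% were called in either direction (2019 at an unadjusted p under 0.05), so the lack of a call there says nothing about the enzymes.

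Within series 1 all 4 *Gpr180*KO livers lay below all 4 wild-type livers for *Mogat1*, at 4.60 to 8.15 FPKM, as in 11.5% of all genes, and above them for *Agpat2*, at 157.5 to 172 against 139 to 156.2 FPKM, as in 3.29% of all genes. Within series 2 no enzyme was separated, against 5.50% of all genes downwards and 0.545% upwards. The difference between the series in the effect of genotype, tested as an interaction in limma, passed for none of the 9 enzymes and for none of all genes, where 833 had an unadjusted p under 0.05. The lowest unadjusted p among the enzymes was 0.0488 for *Agpat3* (adjusted p = 0.649). With the series as a block, 4 enzymes were called lower, *Lpin1* (adjusted p = 0.0306), *Lpin2* (0.0389), *Lpin3* (0.0345) and *Mogat1* (0.0446), while *Gpam* did not pass (0.0572). In this fit 9.52% of all genes were called lower and 1.13% higher. With both the block and median-of-ratios scaling none of the 9 was called by limma. There 3.06% of all genes were called lower and 2.80% higher. In the same fit 7 of the 9 and 2304 of all 10835 genes had an unadjusted p under 0.05. The *Gpam* share of its step was lower by 8.46 points in series 1 (exact permutation p = 0.0286, the smallest that 4 against 4 livers allow) and by 25.1 points in series 2 (exact permutation p = 0.0238), and the *Agpat2* share was higher by 1.35 points (exact permutation p = 0.457) and 5.21 points (exact permutation p = 0.00794). Adjusted over the 6 shares of each series, these were 0.171 and 0.0714 for *Gpam* and 0.549 and 0.0476 for *Agpat2*, so that only the *Agpat2* share in series 2 passed. The series 2 shares include KO51, which had the highest *Agpat2* share of the *Gpr180*KO livers (78.0%), and are not given without it.

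The enzymes were next compared with each other across the 18 livers, on log2(FPKM + 0.1) with the mean of each genotype and series removed, by permuting livers within genotype and series and adjusting over 36 pairs. By Pearson's r 5 pairs passed, all positive, and by Spearman's rho none did. *Agpat2* and *Dgat2* had the highest correlation (r = 0.79, adjusted permutation p = 0.0304, rho = 0.76, adjusted permutation p = 0.0583, r = 0.80 without the 2 livers farthest in *Agpat2*). *Lpin3* with *Mogat1* (r = 0.77, rho = 0.74) and *Gpam* with *Lpin2* (r = 0.74, rho = 0.68) also had an adjusted permutation p of 0.0304, and *Agpat3* with *Lpin3* (r = 0.67, rho = 0.66) and *Agpat2* with *Mogat1* (r = 0.67, rho = 0.59) had 0.0405. Without the 2 livers farthest in the first gene these were 0.68, 0.59, 0.69 and 0.43.

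KO51 decided several of these values. Without it 2 pairs passed, *Lpin3* with *Mogat1* (r = 0.81, adjusted permutation p = 0.0290) and *Gpam* with *Agpat2* (r = 0.64, adjusted permutation p = 0.00288). With KO51 the correlation of *Gpam* and *Agpat2* was -0.45, since this liver had the lowest *Gpam* and the highest *Agpat2* of all 18. *Agpat2* with *Dgat2* was 0.64 without KO51 and no longer passed (adjusted permutation p = 0.0969). After median-of-ratios scaling 3 pairs passed.

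**Figure D4:**
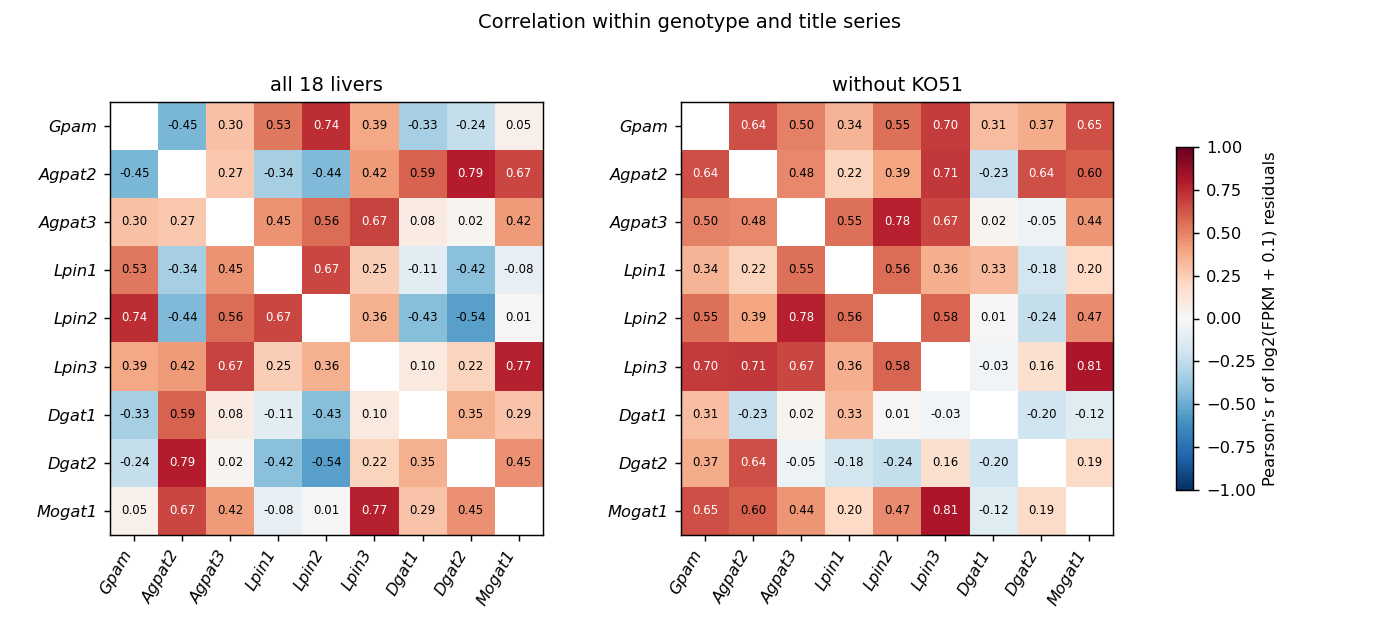
Pearson's r between each pair of the 9 enzymes across livers, on log2(FPKM + 0.1) with the mean of each genotype and title series removed. The left panel uses all 18 livers and the right panel leaves out KO51, and the colour runs from blue at -1 to red at 1. *Gpam* with *Agpat2* is -0.45 on the left and 0.64 on the right, and *Lpin3* with *Mogat1* is 0.77 and 0.81.

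Across the same residuals the genes most like each enzyme among all genes tested are given as a description, by Pearson's r over 18 livers that share their libraries' depth and composition. *Gpam* was most like *1700021K19Rik* (0.94), *Znf512b* (0.94) and *Snrk* (0.94), and *Agpat2* was most like *Mrps18a* (0.97), *Acads* (0.97), which encodes short-chain acyl-CoA dehydrogenase, and *Khk* (0.97), which encodes ketohexokinase. *Agpat3* was most like *Tmub2* (0.87), *Zfp523* (0.87) and *Soat2* (0.85), the last of which encodes a cholesterol esterifying enzyme. *Lpin1* was most like *Ext1* (0.88), *Cyp7a1* (0.85), the rate-limiting enzyme of bile acid synthesis, and *Map2k7* (0.84). *Lpin2* was most like *Epm2a* (0.92), which encodes laforin, *Zfyve26* (0.89) and *Dnmbp* (0.88), and *Lpin3* was most like *F2r* (0.92), a thrombin receptor, *Limk1* (0.91) and *Arrdc1* (0.89). *Dgat1* was most like *Drg2* (0.92), *Ubac2* (0.91) and *Mrps27* (0.90), *Dgat2* was most like *C330021F23Rik* (0.89), *Pqlc1* (0.89) and *Prdx6* (0.87), and *Mogat1* was most like *Atp9a* (0.93), *Prpf19* (0.92) and *Rmdn3* (0.90). The 9 lists had no gene in common, and no enzyme was among the 3 closest genes of another. Without KO51 the r of these same pairs ran from 0.76 for *Dgat2* with *Prdx6* to 0.93 for *Lpin3* with *F2r*. For *Agpat2* it was then 0.84 with *Mrps18a*, 0.83 with *Acads* and 0.89 with *Khk*. The closest genes were not searched for again without KO51.

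Around these enzymes stand 21 other genes of glycerolipid synthesis, of which 17 were tested, 2 were called lower and 0 higher and 10 had an unadjusted p under 0.05 by limma, with a median log2 difference of -0.26 against -0.13 over all genes. The shares over all genes were 4.28% called lower, 0.452% called higher and 22.2% with an unadjusted p under 0.05. *Acsl3*, an acyl-CoA synthetase, fell from 16.4 ± 3.50 to 10.3 ± 2.31 FPKM (SD, n = 9 and 9, log2 difference -0.66 ± 0.14 SE, adjusted p = 0.0162 by limma) and lay below the wild-type mean in 9 of 9 livers. *Ppap2c*, now named *Plpp2*, a lipid phosphate phosphatase of the cell surface, fell from 10.5 ± 2.33 to 6.92 ± 1.55 FPKM (log2 difference -0.58 ± 0.14 SE, adjusted p = 0.0289 by limma). After median-of-ratios scaling *Acsl3* kept its call (adjusted p = 0.0471), *Ppap2c* lost it (0.0979) and *Agpat6* was called higher. The 4 most abundant of the 21 did not pass, although with the series as a block *Acsl5* was called lower (adjusted p = 0.0183). They were *Acsl1* at 331 and 322 FPKM in wild-type and *Gpr180*KO, *Gpd1*, which makes glycerol 3-phosphate, at 250 and 211, *Acsl5* at 248.8 and 206, and *Aqp9*, a glycerol channel, at 166 and 165.

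Phosphatidic acid and diacylglycerol also feed the phospholipid branches, and of 12 genes tested there 0 were called lower and 0 higher, with a median log2 difference of -0.09. On the deposited scale 3 of the 12 had an unadjusted p under 0.05 by limma, and after median-of-ratios scaling 1 was called higher, *Etnk2*, an ethanolamine kinase, at 71.2 and 90.5 FPKM (adjusted p = 0.0428). *Pemt*, at 322 and 313 FPKM, *Pcyt2*, at 271 and 276, and *Chpt1*, at 139 and 124, were with *Etnk2* the most abundant of the branch. The 3 genes for the phosphatase complex that acts on lipins and for a lipin 1 partner, *Ctdnep1*, *Cnep1r1* and *Ppargc1a*, were not called by limma (1 with an unadjusted p under 0.05, median log2 difference 0.02).

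Of 6 genes linked to PPAR-gamma in fatty liver, a set to which *Mogat1* is usually counted, only *Cd36*, a fatty acid transporter, was called lower, at 102 and 63.4 FPKM (log2 difference -0.73, adjusted p = 0.0337 by limma), and the median log2 difference was -0.65. *Cd36* kept its call after median-of-ratios scaling (adjusted p = 0.0489), and 3 of the 6 had an unadjusted p under 0.05 as deposited. Of 8 targets of SREBP1, a set to which *Gpam* is usually counted, 3 were called lower by limma, *Acaca* (-0.63), *Acly* (-0.66) and *Elovl6* (-0.77), all of fatty acid synthesis, against 4.28% of all genes, and the median was -0.69. All 8 had an unadjusted p under 0.05, against 22.2% of all genes, and 7 of the 8 had a negative difference. With the series as a block *Fasn* (adjusted p = 0.0219) and *Me1* (0.0206) were called lower as well. *Srebf1*, the gene of SREBP1 itself and in the same list, was at 69.3 FPKM in wild-type and 86.3 in *Gpr180*KO, above the wild-type mean in 8 of 9 livers, and did not pass (adjusted p = 0.138). After median-of-ratios scaling *Elovl6* kept its call (adjusted p = 0.0263), *Acaca* (0.0646) and *Acly* (0.106) lost theirs and *Srebf1* was called higher (0.47, adjusted p = 0.0459). Of 8 genes induced by fasting, as *Lpin1* is known to be, none was called in the main fit by limma, where 3 had an unadjusted p under 0.05. There 5 of the 8 had a negative difference, with a list median of -0.18. With the series as a block *Pdk4* was called lower (-0.85, adjusted p = 0.0123) and *Pck1* higher (0.71, adjusted p = 0.0268). After median-of-ratios scaling 1 was called, *Pck1*, higher (0.86, adjusted p = 0.0471).

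Some markers of other cells differed with the genotype, and their part in the differences above was not tested. Of 5 stellate cell and fibroblast markers 3 were called lower (*Dcn*, *Col1a1* and *Col3a1*), and their summed FPKM was 137 to 268 in wild-type and 76.1 to 133.4 in *Gpr180*KO. Of 4 macrophage markers tested 1 was called lower, *Cd68*, and their sums overlapped (105 to 254 and 120 to 192 FPKM). *Clec4f* had a positive log2 difference (0.16, adjusted p = 0.573 by limma), while 3 of the 4 had a negative one. Of the cholangiocyte markers the 1 tested, *Sox9*, was called lower (sums 2.72 to 6.02 and 1.43 to 3.43). Of 6 hepatocyte markers 1 was called higher, *Serpina1c*. By limma none was called among 4 endothelial markers (0 with an unadjusted p under 0.05), 3 erythroid markers (1) or the 1 gene tested of the lymphocyte list, *Ptprc* (1). *Cd3e*, *Cd79a* and *Nkg7* of that list did not reach the level for a test. After median-of-ratios scaling the erythroid marker *Alas2* was called higher (adjusted p = 0.0449) and *Sox9* lost its call (0.137). Of the adipocyte markers, which bear on genes that fat also expresses at high levels, *Plin1* was at 0 in all 18 livers, *Lep* in 17 and *Adipoq* in 14, and only *Cfd* reached the level for a test and was not called. No skeletal muscle marker reached that level, and of the pancreas markers only *Cela1* did. It was not called as deposited (adjusted p = 0.0552) and was called higher after median-of-ratios scaling (0.0489) and with the series as a block (0.0393).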

How the data were processed

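Liver poly(A) RNA of 9 wild-type and 9 *Gpr180*KO mice was sequenced from TruSeq libraries as single reads. Per the study's methods the reads were aligned to mm10 (GRCm38) with Illumina's TopHat Alignment application, whose FPKM output was used. The authors deposited gene-level FPKM with an interval and a status for each value. The gene annotation is not given in the sources used here. Of the 162 values of the 9 enzymes 65 lay outside their own tabled interval, so the interval was used only as a guide to precision. The tables hold no counts. Values of entries sharing a symbol were summed, and 24 genes with a failed estimate in any library (190 values) were left out. Groups were taken from the genotype label.

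The genotype test was that of limma 3.58.1, run in R 4.3.3 (moderated test with a mean-variance trend, two-sided) on log2(FPKM + 0.1), in 10835 genes with a mean of at least 1 FPKM, with Benjamini-Hochberg adjustment over all of them and a threshold of 0.05. The pseudocount makes fold changes of low genes smaller. Shares and level orders were tested by exact permutation, and correlations by 100000 permutations within genotype and title series (Python 3.11.15, numpy 2.4.6, scipy 1.17.1). The limma step was tested on simulated data. Alternatives were 2 pseudocounts, 3 filters, scaling by median of ratios, by the 75th percentile or to TPM, the title series as a block or alone, library weights, and leaving out each liver. All 9 enzymes were to be named, with the genes called and the 4 most abundant of the neighbouring pathway lists and the 3 genes most like each enzyme. The enzymes, the lists and the settings were chosen with earlier results of these data known. Positions are from GENCODE vM21 and promoter sequences from RefSeq (GRCm38.p6). Older symbols in the tables (*Agpat6*, *Agpat9*, *Gyk*, *Ppap2a*, *Ppap2b*, *Ppap2c*, *Ept1*) were matched by hand, and the macrophage marker *Adgre1* was not found under that symbol.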

Additional observations from a re-analysis of the deposited data

Results flagged for a closer look

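In 30 groups of 9 livers (each enzyme and each share of a step in each genotype), the highest and the lowest liver was compared with its neighbour, and a mark was set where the gap was more than 0.493 of the group's whole range. Chance marks about 1 group in 20. There were 8 marks on 5 livers, 3 of them on KO51. Its *Gpam* level of 18.5 FPKM lay under the next *Gpr180*KO liver at 51.5, a gap of 0.531 of the range on the log2 scale. Its *Agpat2* level of 243 FPKM lay above the next at 172, a gap of 0.525 of the range. Its *Agpat2* share of the sum of *Agpat2* and *Agpat3*, 78.0%, lay above the next at 69.4%, a gap of 0.600. In the same library the 20 most abundant genes took 33.6% of the summed FPKM, against 23.1% to 26.8% in wild-type and up to 34.0%, that of KO52, in *Gpr180*KO.

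Among wild-type livers, the *Gpam* share was lowest in W134 at 49.2%, with the next at 66.7% (gap 0.531), and the *Agpat2* share was lowest in W320 at 59.8%, with the next at 62.8% (gap 0.507). W131 had the highest *Lpin1* share of the lipin sum, 30.7% with the next at 21.6% (gap 0.629), and the lowest *Lpin2* share, 67.7% with the next at 76.0% (gap 0.582), which are 2 readings of one balance. The *Lpin1* share was also set apart in the *Gpr180*KO liver KO54, at 25.8% with the next at 20.2% (gap 0.514).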

How the results depend on the processing

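The signs of the *Gpam*, *Agpat2*, *Lpin1*, *Lpin2*, *Lpin3*, *Dgat2* and *Mogat1* differences held under every alternative in which each was tested (*Lpin3* fell under the FPKM minimum of 5). The 1 call, *Lpin1* lower, did not. It was lost with an FPKM minimum of 5 (-0.72, adjusted p = 0.0521), with no filter (-0.72, 0.0555), and with scaling by median of ratios (-0.57), by the 75th percentile (-0.63) or to TPM (-0.76), leaving 0 enzymes called lower. It was also lost in title series 1 alone (-0.44) and 2 alone (-0.94), where fewer livers enter. The call was kept under both other pseudocounts, the FPKM minimum of 0.1, the fit without a trend, the series block and the library weights. Leaving out 1 liver gave 0 to 1 enzymes called lower and -0.82 to -0.61 for *Lpin1*, with -0.74 to -0.61 where the call was lost. For the values lost or gained here the cause was not tested. With the series as a block 4 enzymes were called lower, adding *Lpin2* (-0.43), *Lpin3* (-0.49) and *Mogat1* (-0.83). With library weights 2 were called lower, adding *Lpin2* (-0.28). Of all 10835 genes the block called 1031 lower and the library weights 1161, against 464 in the main fit.

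The fits that joined median-of-ratios scaling with the block, with the loss of KO51 or with 1 series alone were chosen after seeing the data. They called 0 enzymes lower, with *Lpin1* at -0.57 with the block, -0.49 without KO51, -0.35 in series 1 and -0.74 in series 2. In 2 of them 1 enzyme was called higher, *Agpat2*, at 0.21 without KO51 and 0.26 in series 1. Those 2 fits called 269 and 201 of all 10835 genes higher. *Agpat3* turned positive with median-of-ratios scaling (0.088), with it and the block (0.088), without KO51 (0.077), in series 1 (0.17) and in series 2 (0.020), and with 75th percentile scaling (0.028), series 1 alone (0.085) and library weights (0.031). *Dgat1* turned negative in series 1 alone (-0.039), with library weights (-0.037) and on leaving out KO51 or 1 of 2 other livers (-0.0065 to 0.097 over all 18 omissions). Neither gene passed in any of these.

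Of the 6 shares, the *Gpam* difference was -8.46 points in series 1 and -25.1 in series 2, neither past the adjusted threshold, and -20.7 to -14.3 points on leaving out 1 liver. The *Agpat2* difference was 1.35 points in series 1, 5.21 in series 2, where it passed (adjusted p = 0.0476), and 2.16 to 3.97 on leaving out 1 liver. Both calls were kept in 7 of 18 omissions. The *Lpin3* difference, near 0 throughout, was -0.0236 points in series 2 and -0.0803 to 0.129 on leaving out 1 liver, negative in 10 of 18 omissions. Without KO54 the *Lpin1* share (-4.17 points) and the *Lpin2* share (4.04 points) passed, out of -4.17 to -1.79 and 1.83 to 4.04 over all omissions. The number of correlated pairs was 3 with median-of-ratios scaling, 15 with only the genotype mean removed and 2 without KO51, against 5.

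The other glycerolipid enzymes called lower were 1 with median-of-ratios scaling, alone, with the block, without KO51 or in series 1, 4 with the block and with library weights, 0 in series 2 on either scale, and 1 to 3 on leaving out 1 liver (1 without W317, W318, W320, W133, KO52, KO53 or KO54). Those called higher were 1 with median-of-ratios scaling, alone, with the block, without KO51 or in series 1, and 1 with the block, in series 1 alone and with library weights, and 0 to 1 on leaving out 1 liver. Of the phospholipid branch 1 was called lower with the block, in series 1 alone, with library weights and in series 1 after median-of-ratios scaling, 1 was called higher with median-of-ratios scaling, alone, with the block or without KO51, with 75th percentile scaling and with the block, and 0 to 1 were on leaving out 1 liver.

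Over all genes the calls split into 464 lower and 49 higher as deposited and 147 and 146 after median-of-ratios scaling. All genes called ranged from 132 to 922 on leaving out 1 liver, and series 2 alone called 0 of 10835 by limma, with 2019 at an unadjusted p under 0.05. No paired analysis was possible because the titles carry mouse numbers, and nothing in the labels says that the 2 numbers found in both genotypes mark related mice. Depth limits *Lpin3*, *Dgat1* and *Mogat1* most, whose tabled intervals span a median of 15.7% to 24.2% of the FPKM to each side.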
